A study of Mus musculus with 12 samples.

Results

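Tet1, Tet2, Tet3 and Tdg, the enzymes that oxidize 5-methylcytosine and excise the oxidized base, were followed in mouse embryonic stem cells (ESCs) in which YAP was lowered or raised. These 4 genes were picked by symbol for their role in active DNA demethylation, out of 24480 genes listed in each library. The question was whether their transcripts follow YAP. All cells were E14Tg2a, a feeder-independent ESC line kept in leukemia inhibitory factor, and all were transfected transiently with a lipid reagent. Knocked-down cells (YAP KD) received a mix of Stealth siRNAs against YAP and their controls (CTR KD) a scrambled siRNA. Per the paper, RNA of the knockdown was taken from ESCs at the time of lowest YAP after transfection. Differentiating cells, in which the paper followed DNA methylation, are not among these libraries. Overexpressing cells (YAP OE) received a pCAG plasmid with the mouse YAP coding sequence, and their controls (CTR OE) a plasmid that the labels describe as expressing GFP and the methods as empty. Each of the 4 groups had 3 libraries, 12 in all, from independent experiments. A transient transfection leaves a mixture of cells that took up more or less siRNA or plasmid, and in such bulk samples fewer cells that express a gene and less RNA per cell cannot be told apart.

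YAP, the coactivator at the end of the Hippo pathway, reaches DNA through TEAD factors. TET proteins are dioxygenases that use iron, 2-oxoglutarate and ascorbate to turn 5-methylcytosine into 5-hydroxymethylcytosine, 5-formylcytosine and 5-carboxylcytosine. TDG, a thymine DNA glycosylase, cuts out the last pair, and base excision repair then fills in an unmodified cytosine. Tet1 and Tet2 are known as the TET enzymes of ESCs, whereas Tet3 is known for its role in the oocyte and zygote.

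On GRCm38.p6, RefSeq places Tet1 at chr10:62804570-62887469, Tet2 at chr3:133463677-133545136, Tet3 at chr6:83362373-83457208 and Tdg at chr10:82629814-82650799, all protein coding. The 3 TET genes had whole-number counts in every library, so no division of their reads with another gene was seen. The counts of Tdg were not whole in 12 of 12 libraries, so some of its reads were divided. The other side of that division was found by adding Tdg to each of 2083 genes with similarly divided counts. The sum of Tdg and Gm9855 was a whole number, within a tolerance of 0.015 counts, in 12 of 12 libraries, and the next best genes reached 3. RefSeq lists Gm9855 as Tdg-ps2, a transcribed pseudogene at chr10:42052558-42055453 on GRCm38.p6. The Tdg transcript (2959 bases) aligned to the Gm9855 locus of the NCBIM37 assembly as 1 uninterrupted block at 99.28% identity over 2916 bases. Copies of the same kind, Gm9855 included, at 95% identity or more over at least 1000 bases, lay at 4 loci outside Tdg, on chromosomes 10, 7, 15 and 19 of NCBIM37.

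Tdg and Gm9855 differed at 21 positions of the aligned transcript, 9 of them in the coding sequence of 1194 bases, and shared an identical run of 756 bases. The stretch with most of the coding differences is printed. Within the aligned part of the transcript, only reads that cover such a position can tell the gene from the pseudogene. It spans coding bases 851 to 1090 of the transcript Tdg-001, 5′ to 3′ on the sense strand, read from NCBIM37. The 7 positions at which Gm9855 carries another base are in capitals.
Tdg coding bases 851 to 1090: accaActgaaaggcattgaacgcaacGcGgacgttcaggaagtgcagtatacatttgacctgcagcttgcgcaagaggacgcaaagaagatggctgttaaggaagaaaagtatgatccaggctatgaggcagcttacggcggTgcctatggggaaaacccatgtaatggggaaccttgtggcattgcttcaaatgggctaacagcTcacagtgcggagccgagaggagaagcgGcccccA

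The library labels held for Yap1, the targeted gene. Its level, as CPM (each library's counts scaled to a common total, with TMM factors), was 125 ± 9.40 in CTR KD and 56.7 ± 1.80 in YAP KD (mean ± SD, n = 3). It was 133 ± 2.02 in CTR OE and 259 ± 16.6 in YAP OE, where reads of the plasmid's YAP transcript may be included. The log2 fold change was -1.14 (SE 0.057, adjusted p = 4.36e-05, edgeR quasi-likelihood test) in the knockdown and 0.97 (SE 0.047, adjusted p = 3.47e-08, same test) in the overexpression. Libraries held 42900000 to 57200000 expected counts and 17611 to 18163 genes with a count. The 8 ESC markers summed to between 3670 and 4040 CPM in the 4 groups and none of them was called in either experiment. Formative and primed epiblast markers (7 genes) summed to 302 to 389 CPM, primitive endoderm markers (6 genes) to 6.08 to 8.62 and fibroblast markers (5 genes) to 1.89 to 3.11 over the 4 groups. Trophoblast markers (6 genes) summed to 60.8 to 69.5 CPM in CTR KD and 77.4 to 78.1 in YAP KD, and to 96.8 to 106 in CTR OE and 122 to 150 in YAP OE. Neural markers (4 genes) summed to 83.9 to 89.2 in CTR KD, 101 to 107 in YAP KD, 92.5 to 92.9 in CTR OE and 82.1 to 84.1 in YAP OE. Of these lists, edgeR called Zic2, Krt8, Nes and Tubb3 higher in YAP KD, and in YAP OE it called Dab2, Cdx2, Gata3, Krt8 and Krt18 higher and Zic2 and Tubb3 lower. No gene of these lists was listed at 0 in a whole group, and the part of such cells in the values of Tet1, Tet2, Tet3 and Tdg was not tested.

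None of the 4 genes passed the test in the knockdown, in the overexpression or in the test of the difference between both responses. Among all genes, 5.49% of 14606 tested were called in YAP KD against CTR KD, 2.13% of 14804 in YAP OE against CTR OE and 8.8% of 15049 in the difference, at an adjusted p under 0.05 in the edgeR quasi-likelihood test. Beside such shares, 0 called of 4 does not set these genes apart from other genes. None of the 4 had an unadjusted p under 0.05 in any of the 3 comparisons, and DESeq2 and limma-voom called none of them either. What the libraries do give is a limit on the size of a response, and it was narrow for Tet1 and Tet2, wider for Tet3 and widest for Tdg.

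**Figure D1:**
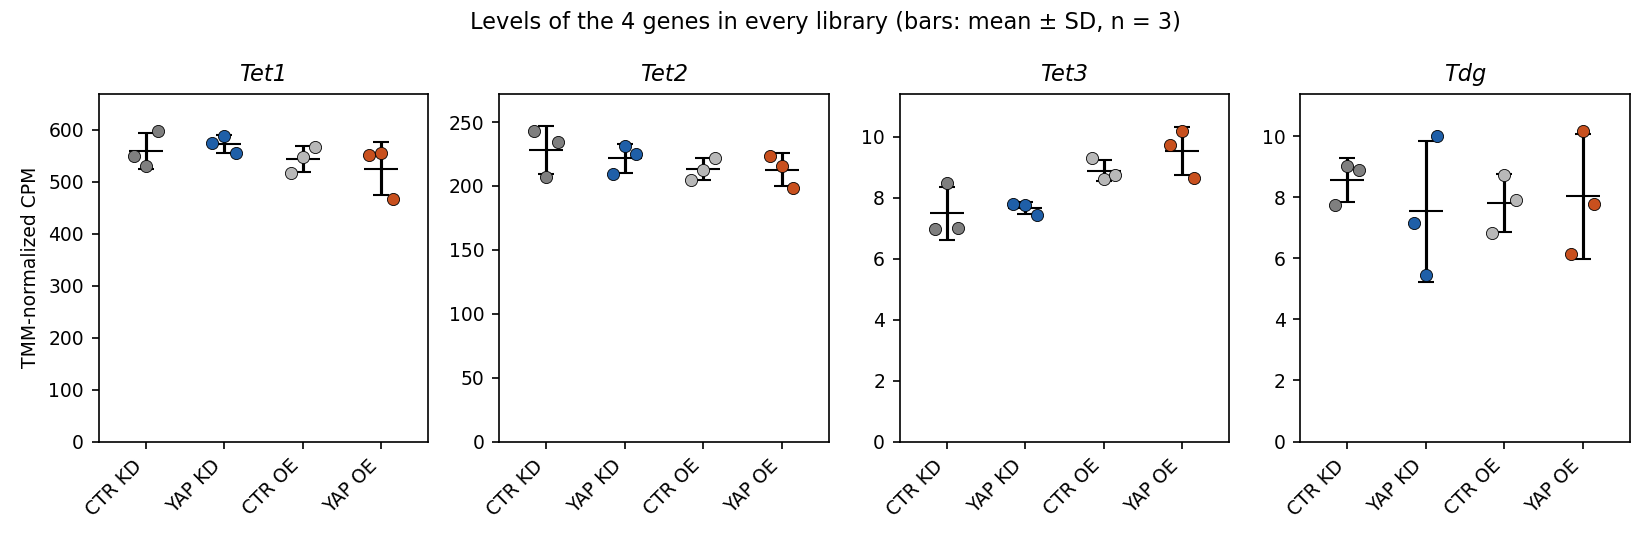
Levels of Tet1, Tet2, Tet3 and Tdg in each of the 12 libraries, in TMM-normalized CPM on axes that start at 0; points are libraries and bars are mean ± SD of 3. For every gene the YAP and the control points of an experiment overlap, and the points of Tdg are the most scattered in YAP KD and YAP OE.

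Tet1, the TET gene with the highest level per length in these cells, opens the oxidation of 5-methylcytosine and binds unmethylated CpG through a CXXC domain. Its CPM was 548, 530.3 and 598 in the 3 CTR KD libraries and 573, 589 and 554 in the 3 YAP KD libraries. The YAP KD libraries all lay within the range of their controls. In the overexpression the level was 517, 548 and 567 CPM in CTR OE and 552, 555 and 466 CPM in YAP OE. A pair of YAP OE libraries sat inside the control range and the third was the lowest of the 12. The log2 fold change was 0.036 in YAP KD (SE 0.051, adjusted p = 0.765, edgeR quasi-likelihood test) and -0.053 in YAP OE (SE 0.062, adjusted p = 0.796, same test). Expressed as a change of the level, the 95% intervals ran from -5.22% to 10.9% in the knockdown and from -12.0% to 5.65% in the overexpression.

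Tet2 makes the same oxidation products but lacks a CXXC domain of its own. It was counted at 243, 207 and 234 CPM in CTR KD and at 209, 231 and 225 CPM in YAP KD. Here too the YAP KD libraries fell between the lowest and the highest control. CTR OE libraries had 205, 212 and 222 CPM and YAP OE libraries 224, 216 and 199 CPM, with the YAP OE values on both sides of the controls. The response of Tet2 was -0.040 on the log2 scale in YAP KD (SE 0.064, adjusted p = 0.800, edgeR quasi-likelihood test), with a 95% interval from -11.9% to 7.42%. In YAP OE it was -0.0020 (SE 0.048, adjusted p = 0.993, edgeR quasi-likelihood test), with an interval from -7.04% to 7.27%.

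Tet3, which like Tet1 has a CXXC domain, was covered by 318 to 503 counts in a library, against 24152 to 29904 for Tet1 and 8815 to 12040 for Tet2. Libraries of CTR KD held 6.98, 8.49 and 6.996 CPM of Tet3 and those of YAP KD 7.78, 7.78 and 7.45 CPM. The YAP KD values were closer to each other than the control values and lay among them. With YAP raised, Tet3 was at 9.74, 10.2 and 8.66 CPM, and in CTR OE at 9.30, 8.63 and 8.76 CPM. The 2 highest Tet3 values of the series were YAP OE libraries, whereas the other YAP OE library fell within the control range. Log2 fold changes of Tet3 were 0.033 (SE 0.088, adjusted p = 0.893, edgeR quasi-likelihood test) in the knockdown and 0.096 (SE 0.074, adjusted p = 0.653, same test) in the overexpression. Their 95% intervals ran from -10.8% to 17.2% and from -4.18% to 19.2%.

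Tdg, which removes 5-formylcytosine and 5-carboxylcytosine and whose loss is lethal to the mouse embryo, was covered by 239.92 to 536.46 counts in a library. Its CPM was 7.75, 9.04 and 8.91 in CTR KD, and 7.14, 5.46 and 10.003 in YAP KD. The YAP KD libraries contained both the lowest Tdg value of the 12 and a value above all CTR KD libraries. CTR OE gave 6.83, 8.72 and 7.92 CPM and YAP OE 6.14, 10.2 and 7.77 CPM, again with a YAP library on each side of the controls. The coefficient of variation was 30.5% in YAP KD and 25.3% in YAP OE, against 8.30% in CTR KD and 12.1% in CTR OE. The fitted log2 fold change was -0.17 in YAP KD (SE 0.177, adjusted p = 0.670, edgeR quasi-likelihood test) and 0.029 in YAP OE (SE 0.137, adjusted p = 0.967, same test). A change between -32.5% and 16.9% in the knockdown and between -16.7% and 24.9% in the overexpression stays within the 95% intervals. The knockdown value rested on single libraries, since leaving out replicate 3 of YAP KD gave -0.45 and leaving out replicate 2 gave 0.012, neither of them called.

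A gene that follows YAP would have a positive difference between the log2 fold change in YAP OE and that in YAP KD, and Yap1 itself had 2.11. Fitted over all 12 libraries, this difference was -0.087 for Tet1 (SE 0.090, adjusted p = 0.639), 0.039 for Tet2 (SE 0.085, adjusted p = 0.844), 0.066 for Tet3 (SE 0.117, adjusted p = 0.804) and 0.20 for Tdg (SE 0.264, adjusted p = 0.724), all by the edgeR quasi-likelihood test. Of 5 genes on the methyltransferase side, Dnmt3l, the catalytically inactive partner of the de novo methyltransferases, gave 0.86 (SE 0.061, adjusted p = 4.22e-07, same test). Dnmt3l had fallen by 0.59 on the log2 scale in YAP KD (adjusted p = 1.22e-04, edgeR quasi-likelihood test) and had risen by 0.27 in YAP OE (adjusted p = 3.99e-03, same test). The difference of Dnmt3a, a de novo methyltransferase, had the opposite sign, -0.27 (SE 0.067, adjusted p = 0.0176, edgeR quasi-likelihood test). Dnmt3b (0.016), Dnmt1 (-0.12) and Uhrf1 (-0.14) were not called in the difference. The 95% intervals of Tet1, Tet2 and Tet3 did not reach the Dnmt3l estimate in either experiment. In YAP OE, however, the interval of Tet3 reached 0.253 on the log2 scale, inside Dnmt3l's own interval from 0.175 to 0.368. Tdg as counted was less precise, since its interval in YAP OE reached 0.32 on the log2 scale. As a log2 ratio to Dnmt3l, computed after the Dnmt3l result was known and carrying that gene's own change, Tet1 differed by 0.63, Tet2 by 0.55 and Tet3 by 0.63 between YAP KD and CTR KD, and by -0.33, -0.27 and -0.17 between YAP OE and CTR OE.

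**Figure D2:**
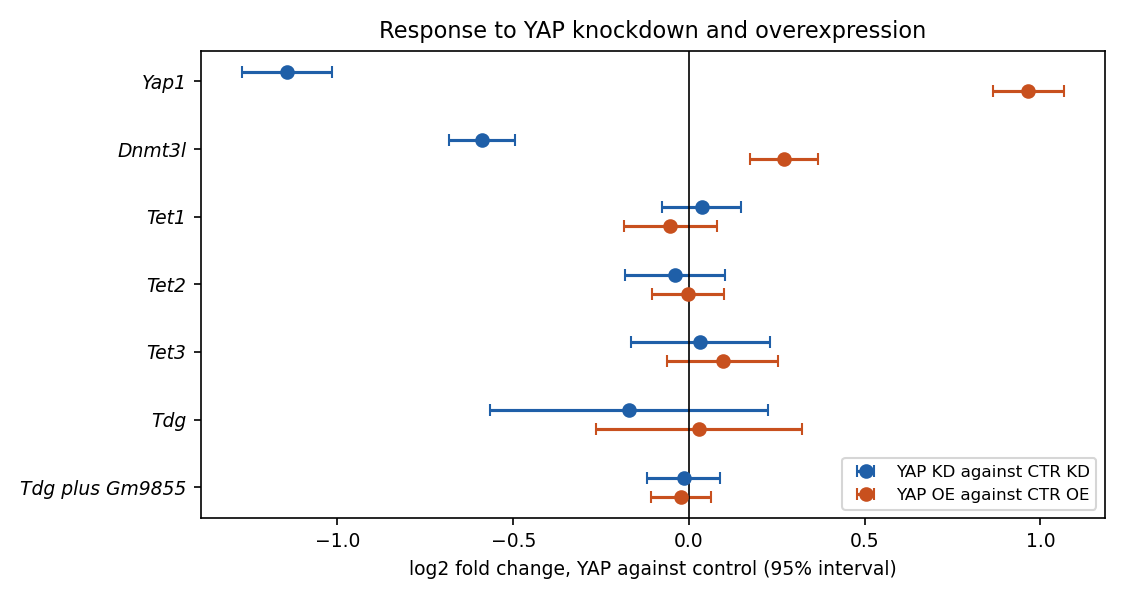
Log2 fold change of YAP against its own control, with the 95% interval of the edgeR fit, in the knockdown and in the overexpression. Yap1 and Dnmt3l lie on opposite sides of 0 in the 2 experiments, whereas the intervals of Tet1, Tet2, Tet3, Tdg and the sum of Tdg and Gm9855 all include 0.

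Ordered by the group means, Tet1 was highest in YAP KD (572 ± 17.2 CPM), followed by CTR KD (559 ± 34.8), CTR OE (544 ± 24.9) and YAP OE (524 ± 50.8). For Tet2 the order was CTR KD (228 ± 18.6), YAP KD (222 ± 11.3), CTR OE (213 ± 8.45) and YAP OE (213 ± 12.7). Neighbouring groups overlapped at every step for Tet1, Tet2 and Tdg. Tdg ran from CTR KD (8.56 ± 0.711) through YAP OE (8.03 ± 2.03) and CTR OE (7.82 ± 0.945) to YAP KD (7.54 ± 2.30). Tet3 went from YAP OE (9.53 ± 0.791) and CTR OE (8.90 ± 0.357) to YAP KD (7.67 ± 0.194) and CTR KD (7.49 ± 0.868). The libraries of CTR OE and YAP KD did not overlap for Tet3. Nor did those of the 2 control groups, at 6.98 to 8.49 CPM in CTR KD and 8.63 to 9.30 CPM in CTR OE. How many of all genes show such separations was not counted, so they do not set Tet3 apart. This step of Tet3 lies between the 2 experiments, which had their own transfections and controls, so that experiment and treatment cannot be told apart there.

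Per kilobase of effective length, which allows genes to be compared, Tet1 stood at 37.7 to 41.1 CPM and Tet2 at 23.6 to 25.3 CPM in the 4 group means. Tdg stood at 2.48 to 2.81 and Tet3 at 0.698 to 0.888 CPM per kilobase on the same scale. Ranked by the mean per-length level among all genes tested, Tet1 was at percentile 87.0, Tet2 at 79.7, Tdg at 37.5 and Tet3 at 23.3. The level and rank of Tdg rest on RSEM's division of its reads with Gm9855, which stood at 36.8 to 37.5 CPM per kilobase. They are therefore less certain than those of the TET genes. The TET transcripts of these ESCs were thus mainly Tet1 and Tet2.

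In the makeup of the TET transcripts, the YAP libraries overlapped their own controls for each gene in both experiments. Tet1 made up 60.7% ± 1.65 of the summed per-length level of the 3 TET genes in CTR KD and 61.9% ± 1.22 in YAP KD (n = 3, exact permutation p = 0.5). Tet2 took 38.3% ± 1.73 and 37.0% ± 1.25 in the same groups (exact permutation p = 0.6). Tet3 supplied the remaining 1.06% ± 0.188 and 1.08% ± 0.0322 (exact permutation p = 1). In the overexpression the share of Tet1 was 61.5% ± 0.316 in CTR OE and 60.5% ± 1.09 in YAP OE (exact permutation p = 0.3), and that of Tet2 37.2% ± 0.229 and 38.0% ± 1.11 (exact permutation p = 0.4). For Tet3 the share was 1.31% ± 0.104 in CTR OE and 1.43% ± 0.0395 in YAP OE (exact permutation p = 0.2). Adjusted over the 6 shares, the lowest exact permutation p was 0.72. The summed level was 66.2 ± 3.90 CPM per kilobase in CTR KD and 66.5 ± 1.96 in YAP KD (exact permutation p = 1), and 63.6 ± 2.68 in CTR OE and 62.2 ± 5.06 in YAP OE (exact permutation p = 0.8). All of these tests were two-sided, and with 3 libraries against 3 none can give a p below 0.1.

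**Figure D3:**
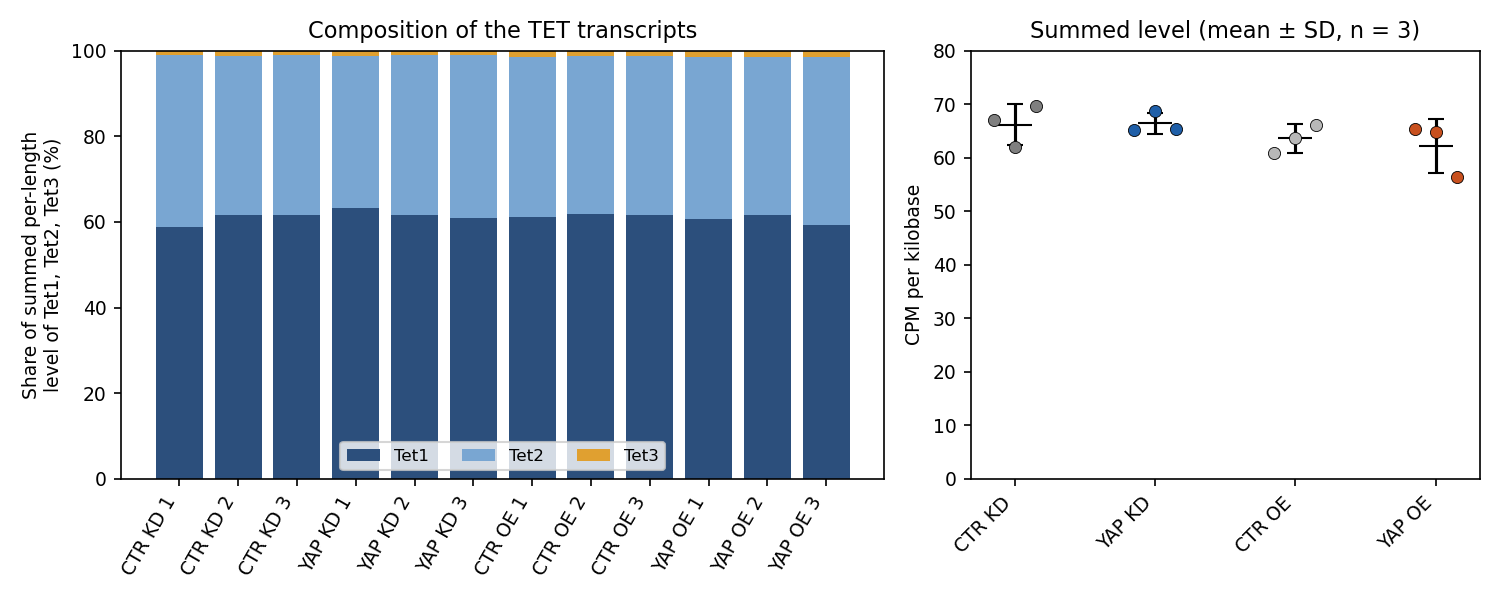
Left, share of Tet1, Tet2 and Tet3 in their summed per-length level in each library, in percent. Right, the summed level in CPM per kilobase, with points for libraries and mean ± SD of 3; Tet1 holds 58.8% to 63.2% of the sum in all 12 libraries and the summed levels of YAP and control libraries overlap in both experiments.

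The deposited length of a gene, an abundance-weighted mean over its annotated transcripts, can vary only for a gene with several transcripts. Tet2 (9181 bases) and Tet3 (10907 bases) have 1 transcript each in the annotation. Tet1 has 2, and its length was 14082 bases in all 12 libraries. A length that is the same in every library cannot show whether the use of the Tet1 transcripts changed. For Tdg, which also has 2 transcripts, the length varied between 3214.39 and 3218 bases. The mean was 3217 bases in each of CTR KD and YAP KD (exact permutation p = 1, n = 3). CTR OE and YAP OE had mean lengths of 3218 and 3216 bases (exact permutation p = 0.4, n = 3). These length tests cannot give a p below 0.1 either.

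Because its reads are divided with Gm9855, Tdg was also examined with the pseudogene. RSEM gave Gm9855 4348.75 to 5663.23 counts of a library, so that by its division Tdg held 5.17% to 9.62% of the pair. Expression of Gm9855 on its own differed between YAP KD and CTR KD by -0.0019 on the log2 scale (SE 0.050, adjusted p = 0.989, edgeR quasi-likelihood test) and by -0.027 between YAP OE and CTR OE (SE 0.041, adjusted p = 0.853, same test). The sum of both genes, which does not depend on how the reads were divided, was 104 to 113 CPM in every library. Fitted as 1 gene, the sum gave a log2 fold change of -0.015 in YAP KD (SE 0.046, adjusted p = 0.905, edgeR quasi-likelihood test) and -0.023 in YAP OE (SE 0.040, adjusted p = 0.884, same test). Its 95% intervals ran from -7.91% to 6.33% and from -7.23% to 4.48%. These limits are on the pair, of which RSEM gave Tdg the minor part, and so do not bound a change of Tdg alone. The true split of the reads between both genes was not tested.

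The level of Tdg also moved with a technical measure of the libraries. RSEM subtracts a fragment-length term from each gene's length, and this term lay between 169 and 185 bases. Over the 12 libraries, the correlation of the term with Tdg CPM was -0.848 (Pearson, permutation p = 0.0008, adjusted over 6 relations 0.0048) and -0.818 (Spearman, permutation p = 0.00214, adjusted 0.0128). Without the 2 libraries farthest from the median, Pearson's r was -0.877. Within the 6 knockdown libraries r was -0.796 (exact permutation p = 0.0667), and within the 6 overexpression libraries it was -0.921 (exact permutation p = 0.0194). The 2 highest Tdg values belonged to YAP KD replicate 3 and YAP OE replicate 2, the libraries with the smallest terms. For the sum of Tdg and Gm9855, r was 0.235 (permutation p = 0.452) and rho 0.350 (permutation p = 0.262). The relation for Gm9855 had an r of 0.563 (permutation p = 0.0568) and a rho of 0.566 (permutation p = 0.0583). Pearson's r was -0.145 for Tet1 (permutation p = 0.654), -0.298 for Tet2 (permutation p = 0.340) and 0.0589 for Tet3 (permutation p = 0.850), with Spearman's rho of -0.154, -0.350 and 0.105 (permutation p = 0.634, 0.261 and 0.745). The relation was looked for after the values were seen, and whether fragment length sets the spread of Tdg was not tested.

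**Figure D4:**
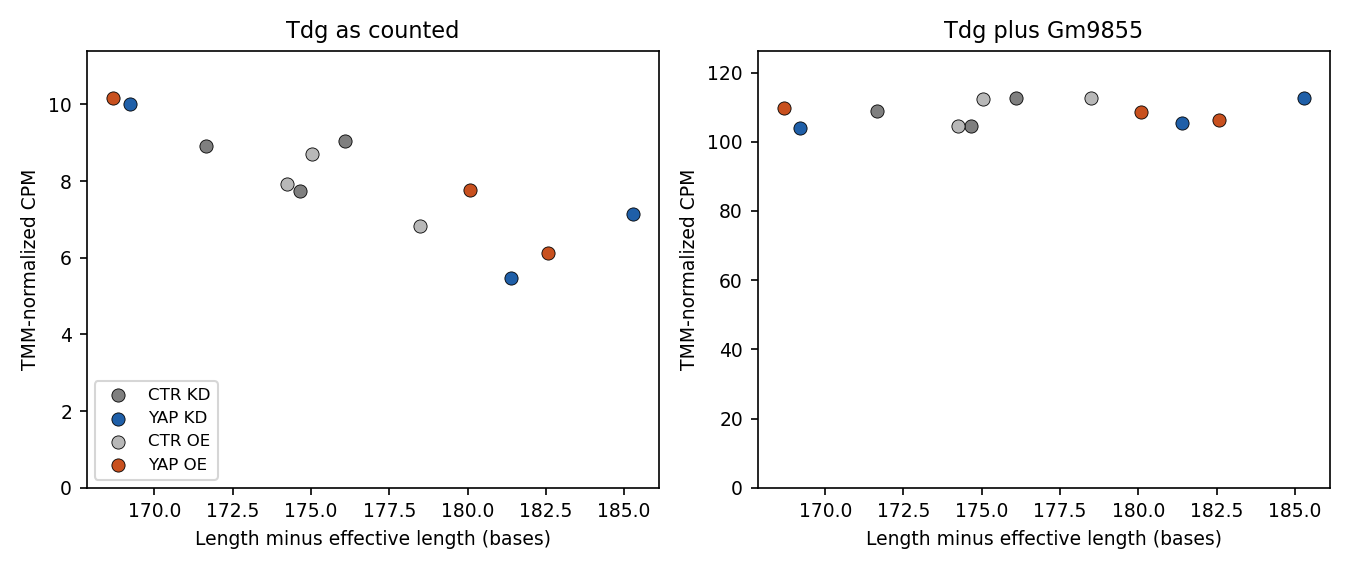
Level of Tdg as counted (left) and of Tdg plus Gm9855 (right), in TMM-normalized CPM, against length minus effective length in bases, with 1 point per library. Tdg is lower in libraries with a larger length term (r = -0.848), and the sum shows no such slope (r = 0.235).

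The minimum for this search was a mean expected count of 50. The 3 genes whose log2 levels followed each of the 4 genes most closely over the 12 libraries were listed, after each experiment was centred on its own mean. For Tet1 they were Igsf10 (Pearson's r = 0.921), Tead1 (0.885), which encodes a DNA-binding partner of YAP, and Kmt2c (0.884), which encodes a histone H3 lysine methyltransferase. For Tet2 they were Akap9, Zkscan1 and Vps13b, with r of 0.956 each. Tet3 was closest to Paxip1 (0.929), Arf3 (0.889) and Wdtc1 (0.887), and Tdg to Tmem238 (0.985), Terc (0.958) and Hist1h2ao (0.953). Between the 4 genes themselves, r was 0.603 for Tet1 and Tet2, and from -0.352 to 0.0422 for the other pairs. These are the highest of 12394 genes, and all genes of a library share its depth and fragment length, so the values describe likeness in these 12 libraries.

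The wider pathway was described with a list of 60 genes ordered by role, of which 58 passed the filter on low counts. Cxxc4 (2 to 11 counts) was among those that did not. In YAP KD, 2 genes of the list rose and 2 fell, which is 6.90% of those tested beside 5.49% of all genes. In YAP OE, 1 fell, which is 1.72% beside 2.13%. The median log2 fold change of the list was 0.028 in YAP KD and -0.0020 in YAP OE, and that of all genes tested 0.0058 and -0.0025. In the difference between the responses, 4 genes of the list were called higher and 4 lower, 13.8% beside 8.8% of all genes.

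None of the 8 other DNA glycosylases was called in either experiment by edgeR, DESeq2 or limma-voom, and 0 had an unadjusted p under 0.05. Mbd4, which removes thymine or uracil opposite guanine, was at 19.7 ± 2.23 CPM in CTR KD and 20.6 ± 1.20 in YAP KD, a log2 difference of 0.069 (adjusted p = 0.721, edgeR quasi-likelihood test). Neil1, Neil2 and Neil3, which can assist TDG, had values between -0.045 and 0.044 on the log2 scale in YAP KD and between -0.047 and 0.097 in YAP OE. The 11 genes of base excision repair after the excision step held no call with these 3 tools, and 2 had an unadjusted edgeR p under 0.05 in each experiment, where 19.6% of all genes had one in the knockdown and 13.1% in the overexpression. Parp1, which senses the strand break, was at 723 ± 16.4 and 726 ± 16.7 CPM in CTR KD and YAP KD.

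Of the 13 tested TET partners and adaptors, 0 were called in YAP KD or in YAP OE by edgeR, DESeq2 or limma-voom, and 5 and 2 had an unadjusted edgeR p under 0.05, a cut passed by 19.6% and 13.1% of all genes. Ogt, the O-GlcNAc transferase bound by TET proteins, had log2 fold changes of 0.0084 (adjusted p = 0.971) in YAP KD and -0.0035 (adjusted p = 0.989) in YAP OE in the edgeR quasi-likelihood test. Gadd45a, an adaptor linked to TDG and base excision repair, had 0.18 in YAP KD (adjusted p = 0.0622, edgeR quasi-likelihood test) and -0.040 in YAP OE (adjusted p = 0.824, same test). The paper, with its own edgeR analysis and cutoffs, names Gadd45a among known direct targets of YAP that were deregulated. Among the readers of oxidized cytosine, Hmces rose by 0.16 on the log2 scale in YAP KD (SE 0.039, adjusted p = 0.0402) and fell by 0.16 in YAP OE (SE 0.038, adjusted p = 0.0390), both by edgeR. HMCES, known to shield abasic sites, was at 181 ± 1.70 CPM in CTR KD, 202 ± 5.63 in YAP KD, 172 ± 1.41 in CTR OE and 154 ± 4.23 in YAP OE. Each of its calls was lost when any of 5 of the 6 libraries was left out.

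A group of 13 tested genes covered 2-oxoglutarate, the cosubstrate of TET enzymes, and inhibitors of dioxygenases. Of these, 2 were called in YAP KD, both lower, which is 15.4% beside 5.49% of all genes. With only 2 genes called, these shares do not set the group apart. Idh2, the mitochondrial NADP-dependent isocitrate dehydrogenase, was at 129 to 141 CPM in CTR KD against 102 to 108 after knockdown, which is -0.35 on the log2 scale (SE 0.046, adjusted p = 2.93e-03, edgeR quasi-likelihood test). Gpt2, the mitochondrial alanine aminotransferase, was at 82.6 to 91.8 and at 68.3 to 70.5 CPM, a change of -0.33 (SE 0.047, adjusted p = 4.60e-03, same test). In YAP OE the values were 0.13 for Idh2 (adjusted p = 0.179, edgeR quasi-likelihood test) and 0.15 for Gpt2 (adjusted p = 0.177), neither of them called. The other 11 genes of this group were called in neither experiment. Apobec2, a member of the cytidine deaminase family without established deaminase activity on DNA, rose by 0.71 in YAP KD (SE 0.112, adjusted p = 6.83e-03, edgeR quasi-likelihood test) at a low level, from 2.42 ± 0.188 to 3.94 ± 0.382 CPM. In YAP OE it had -0.13 (adjusted p = 0.738, same test). The Slc23a1 and Slc23a2 genes, which encode ascorbate transporters, were not called. Fitted on log2(TPM + 1) with limma, none of Idh2, Gpt2, Apobec2 and Hmces passed in YAP KD.

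**Figure D5:**
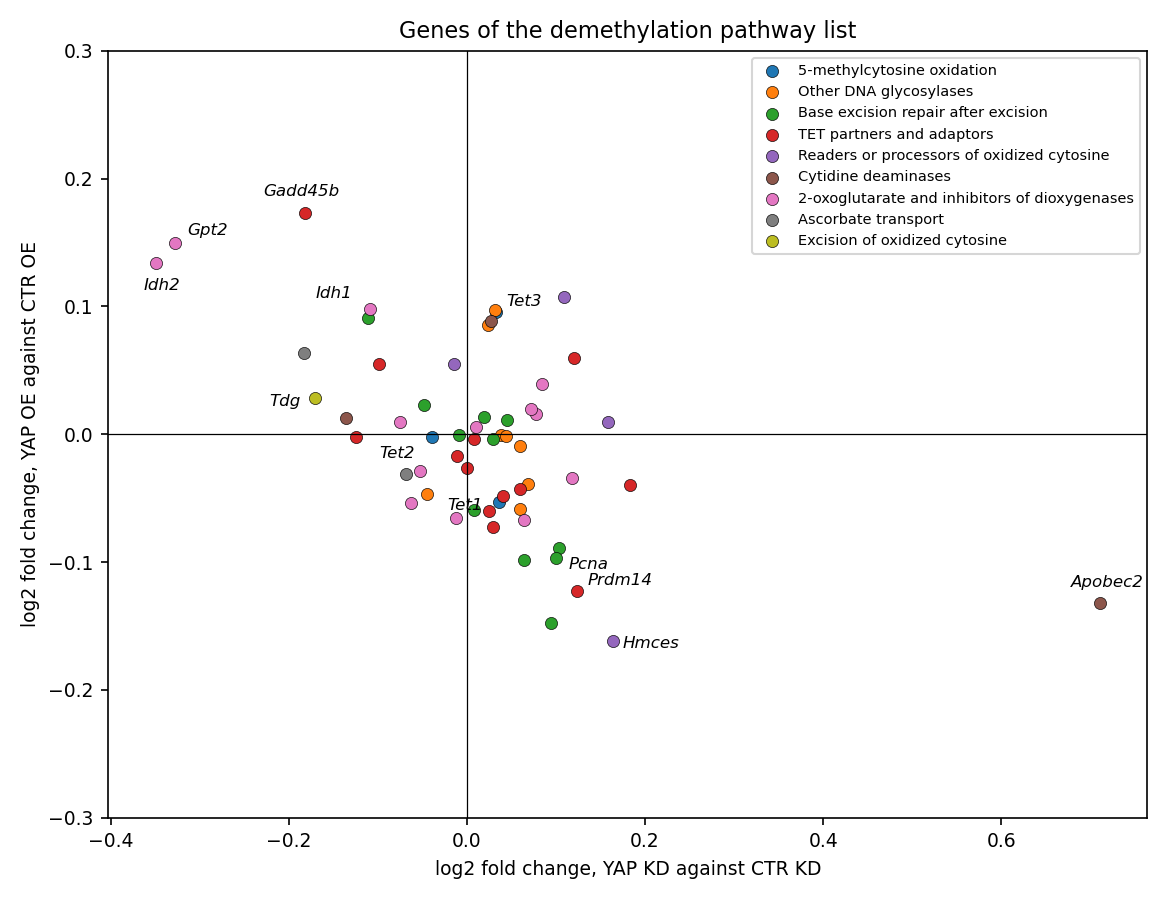
Log2 fold change in YAP KD (horizontal) and in YAP OE (vertical) for the 58 tested genes of the demethylation list, coloured by role; Tet1, Tet2, Tet3, Tdg and the 8 genes with a different response in both experiments are named. The 3 TET genes lie near the origin, Idh2 and Gpt2 at the upper left with -0.35 and -0.33 in the knockdown, and Apobec2 at the far right with 0.71.

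Promoters were searched for the TEAD recognition core, written GGAATG or CATTCC so that both strands are covered. The search used windows of 300 bases around RefSeq starts on GRCm38.p6, with 1 window for each of the 4 genes and several for some other genes. The windows of Tet1 and Tdg held the outer start of the gene, and those of Tet2 and Tet3 lay inside the span printed for the gene, so their outermost starts were not searched. The core was in 0 of the 4 windows of Tet1, Tet2, Tet3 and Tdg and in 14.7% of 32851 windows, so that an absence from 4 windows is the common case. The windows held 17, 57, 22 and 26 CpG dinucleotides for Tet1, Tet2, Tet3 and Tdg, beside a median of 7 over all windows, and 99.8% of all windows had fewer than that of Tet2. A motif elsewhere in these genes, or in a distal element, was not searched for.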

How the data were processed

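Total RNA of 12 ESC libraries was sequenced by the authors. Per the labels, reads were processed with STAR, RSEM and edgeR on mm10, and their versions are not given in the sources used here. The deposited tables give, per gene symbol, expected counts (not normalized; RSEM divides a read that fits several genes), TPM, FPKM and lengths. The deposited TPM and FPKM values, each scaled within a library by the authors, served only in alternatives.

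After rounding of the expected counts, the knockdown and the overexpression were fitted separately (6 libraries each), and the difference of responses on all 12, in edgeR 4.0.16 (R 4.3.3) with filterByExpr, TMM factors, the two-sided quasi-likelihood F test and Benjamini-Hochberg adjustment over all genes kept; calls have an adjusted p under 0.05. The SE is that of the log2 fold change. Shares and lengths were compared by exact permutation over the 20 splits of 3 against 3. Named genes were the 4 genes, Yap1, the pathway list, the 3 genes most alike to each of the 4, and 5 methyltransferase-side genes. The members and lists were chosen with earlier results of these data known, and analyses of Gm9855, fragment length and the Dnmt3l ratio were added after the data were seen. Sequences were matched with blastn 2.17.0 to NCBIM37 and gene positions are RefSeq's. No library was a repeat of another (between replicates, chi-square over its degrees of freedom was 3.39 to 24.2), and p-values measure the spread between these libraries. Alternatives were other scalings (total counts, upper quartile, DESeq2 1.42.0 and its size factors), looser and stricter filters, effective length as an offset, limma 3.58.1 (voom, and log2 of TPM with a pseudocount of 1), 1 fit over all libraries, a replicate block and leaving out each library.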

Additional observations from a re-analysis of the deposited data

Results flagged for a closer look

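Tet1, Tet2, Tet3 and Tdg did not pass the test of a different response to lowered and to raised YAP, which for Tdg leaves a 95% interval from -22.2% to 69.7%. Passing it were 8 other genes of the demethylation list, by the difference between the log2 fold change in YAP OE and that in YAP KD (edgeR quasi-likelihood test, all 12 libraries, 8.8% of all genes called). Positive differences, the sign of a gene that follows YAP, were found for Idh2 (0.485), Gpt2 (0.480), Gadd45b (0.357) and Idh1 (0.208). Negative differences were found for Apobec2 (-0.842), Hmces (-0.324), Prdm14 (-0.245) and Pcna (-0.196). On their own, Gadd45b, Idh1, Prdm14 and Pcna were called in neither experiment. Idh2, Gpt2 and Apobec2 were called only in YAP KD, and Hmces in both. Prdm14, a pluripotency factor that favours hypomethylation, was at 34.1 ± 0.961 CPM in CTR KD, 37.1 ± 0.776 in YAP KD, 29.6 ± 0.998 in CTR OE and 27.2 ± 0.846 in YAP OE. Pcna, the sliding clamp of DNA synthesis, was at 302 ± 8.24, 323 ± 12.6, 305 ± 3.45 and 285 ± 11.6 CPM in the same groups. On leaving out each of the 12 libraries in turn, the calls of Gadd45b, Pcna and Idh1 were lost 11, 10 and 7 times, with differences from 0.292 to 0.441, from -0.222 to -0.165 and from 0.187 to 0.234. DESeq2 and limma-voom did not call Gadd45b, with adjusted p of 0.0552 and 0.0539. With the replicate block the adjusted edgeR p was 0.0712 for Gadd45b, 0.0740 for Idh1, 0.0565 for Prdm14 and 0.121 for Pcna, none of them past the threshold. Pcna was also lost in edgeR with upper-quartile factors (adjusted p = 0.0608) and without a filter (0.0605). Fitted on log2(TPM + 1) with limma, none of the 8 passed. The lowest adjusted p in that limma fit were 0.0796 for Idh2, 0.0923 for Apobec2 and 0.171 for Gpt2.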

How the results depend on the processing

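Across the settings tried, the 12 log2 fold changes and differences of Tet1, Tet2, Tet3 and Tdg gave 227 alternative values, of which 0 were called, with a lowest adjusted p of 0.111 (range 0.111 to 1). Signs of these small values were not fixed. Tet2 in YAP OE turned to 0.00295 with upper-quartile factors, 0.00643 with total counts and 0.0202 with limma on log2(TPM + 1), and Tdg turned to -0.0225 in YAP OE and -0.00591 in the difference when summed with Gm9855. The summed TET level differed by -0.0467 in YAP KD and 0.200 in YAP OE in deposited TPM.

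No scaling moved the median of all genes by as much as 0.1 on the log2 scale. The number of all genes called was 802 in YAP KD, 316 in YAP OE and 1325 in the difference, and became 74, 87 and 139 with limma on log2(TPM + 1), where 93.1% of the YAP OE calls were higher beside 77.8%. YAP KD gave 1261 in 1 fit over all libraries and YAP OE 556 without a filter. The labels do not state whether the replicate numbers pair the libraries. The correlations that follow cannot decide it, since deviations from a mean of 3 libraries depend on one another. Correlations of same-numbered deviations were -0.511, -0.432 and 0.112 in the knockdown and 0.0404, 0.112 and -0.0558 in the overexpression. Differently numbered libraries had correlations from -0.245 to 0.561 in the knockdown and from -0.164 to 0.119 in the overexpression. The highest were CTR KD replicate 2 with YAP KD replicate 1 (0.561) and CTR KD replicate 1 with YAP KD replicate 2 (0.419). Whether such libraries share a batch was not tested. With a block by replicate number, 193 genes were called in YAP KD, 280 in YAP OE and 784 in the difference. List genes called fell from 4 in YAP KD to 0 with limma on log2(TPM + 1), and from 1 in YAP OE to 0 with that fit, with total counts and with the replicate block. The cause of these shifts was not tested.

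Leaving out 1 library at a time, log2 fold changes ran, in YAP KD, in YAP OE and in the difference, from -0.00134 to 0.0858, -0.0967 to 0.0217, -0.138 to -0.00909 for Tet1, from -0.105 to 0.00354, -0.0398 to 0.0406, -0.00846 to 0.102 for Tet2, from -0.0204 to 0.134, 0.0458 to 0.159, -0.0394 to 0.133 for Tet3, from -0.447 to 0.0119, -0.165 to 0.188, 0.00243 to 0.475 for Tdg. The share differences in YAP KD and YAP OE ran from 0.253 to 1.73 and -1.46 to -0.369 for Tet1, from -1.76 to -0.222 and 0.249 to 1.35 for Tet2, from -0.0473 to 0.123 and 0.085 to 0.181 for Tet3 (percentage points). The summed TET level differed by -1.86 to 1.96 and -3.01 to 1.52 CPM per kilobase, and the length of Tdg by -0.373 to 0.772 and -2.03 to -0.222 bases. Genes called numbered 298 to 1019, 154 to 327 and 943 to 1490, and list genes called 3 to 4 and 0 to 2. The fewest in YAP KD came without CTR KD replicate 3 and the fewest in YAP OE without CTR OE replicate 3. Tet3 and Tdg had at most 503 and 536.46 counts in a library, and the SE in YAP KD was 0.088 for Tet3 and 0.177 for Tdg at these depths.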
